A study of Mus musculus with 32 samples.

Results

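The 9 genes described here were Calm2, Calm3, Cdc42, Rac1, Rac2, Nck1, Nck2, Nckap1 and Nckap1l, taken by symbol from the 22337 genes of the deposited tables. They encode calmodulin, 3 small GTPases, the adaptors Nck1 and Nck2, and a pair of Nck-associated proteins that sit in the WAVE complex. The study singled out Calm2, Cdc42, Nck1 and Nckap1l in these same libraries as genes that increased in the meninges with light. Their direction there is therefore not independent evidence. Hippocampus (HPC), meninges and sorted meningeal lymphatic endothelial cells (mLECs) were taken from male C57BL/6J mice at 6 months of age, each sample from 1 mouse. The 3 groups were WT littermates that did not carry the transgenes, 5xFAD mice that went through anaesthesia and handling with no light, and 5xFAD mice given near-infrared light through the skull for 10 min, in 3 weekly sessions over 4 weeks. Mutated human amyloid precursor protein and presenilin genes are expressed in 5xFAD mice under the regulatory sequence of Thy1, a neuronal gene. The groups held 4, 4 and 4 mice in HPC, and 4, 3 and 3 mice both in the meninges and in the mLECs.

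Calmodulin is the main calcium sensor of cells, and Calm2 and Calm3 are separate genes for the same protein. Cdc42, Rac1 and Rac2 are molecular switches that are active when bound to GTP and that direct actin assembly: Cdc42 acts through WASP family proteins and Rac through the WAVE complex, and both routes end at the Arp2/3 complex, which nucleates branched actin. Nck1 and Nck2 link tyrosine-phosphorylated receptors, such as the VEGF and PDGF receptors, to these actin regulators. In endothelial cells this machinery is known for its place downstream of VEGF in migration, and in leukocytes, which use Rac2 and Nckap1l (also called Hem1), for motility and for the oxidative burst.

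Total counts ranged from 13952825 to 23856476 in HPC, from 6601143 to 14708202 in the meninges and from 14231415 to 24207326 in the mLECs, and the biological coefficient of variation across genes was 0.198, 0.350 and 1.89. Thy1 was at an FPKM of 170 to 189 in WT HPC, 407 to 622 in untreated 5xFAD HPC and 434 to 522 with light. Neuron markers summed to an FPKM of 1960 to 2486 in HPC and 96.3 to 495 in the meninges. Choroid plexus markers summed to 15733 to 49264 in the meninges, so choroid plexus transcripts were abundant in these samples. The mLECs had been sorted as DAPI-CD45-CD31+PDPN+ cells, each sample from the meninges of 1 mouse. In them 7 lymphatic markers summed to 38.0 in WT replicate 2 and 55.7 in WT replicate 4 against 1156 to 9718 in the other 8 libraries, so these 2 libraries went against their label. The other 8 were not uniform either. Their lymphatic sums were 1156 to 4490 in untreated 5xFAD mice and 3079 to 9718 with light. Blood endothelium markers summed to 2171 to 4189 over the 10 mLEC libraries. Erythroid markers summed to 12368 in untreated 5xFAD replicate 4 and to at most 511 in the other mLEC libraries. Where p values are given for replicates, each replicate within a tissue was a different mouse.

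Calm2 and Calm3 lie on different chromosomes of the GRCm38 build: Calm2 on chromosome 17 from 87433412 to 87446935 (minus strand) and Calm3 on chromosome 7 from 16915379 to 16924114 (minus strand). Their coding sequences show how separate genes for 1 protein can be counted apart. Of 447 coding positions, 78 differed between both genes, and 74 of those were among the 149 last positions of codons. The first 120 coding bases of each GENCODE vM21 transcript, which lie in exons, are given 5′ to 3′ with the 18 positions that differ between the genes in capitals.
Calm2: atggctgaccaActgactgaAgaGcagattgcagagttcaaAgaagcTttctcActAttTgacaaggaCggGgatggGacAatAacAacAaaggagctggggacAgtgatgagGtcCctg
Calm3: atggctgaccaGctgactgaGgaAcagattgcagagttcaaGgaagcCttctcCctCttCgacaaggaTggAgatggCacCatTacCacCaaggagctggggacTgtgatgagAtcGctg
The capitals are spread along the stretch, and the longest run of coding bases identical in Calm2 and Calm3 was 17 bases, at 82.6% identity. Rac1 and Rac2 were 77.6% identical with a longest shared run of 29 bases, Nck1 and Nck2 were 65.3% identical, and Nckap1 and Nckap1l were 62.2% identical. Counts of 7 members were whole numbers in 32 of 32 samples, while Rac2 was whole in 26 and Rac1 in 4. What left fractions in these counts was not tested.

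**Figure D1:**
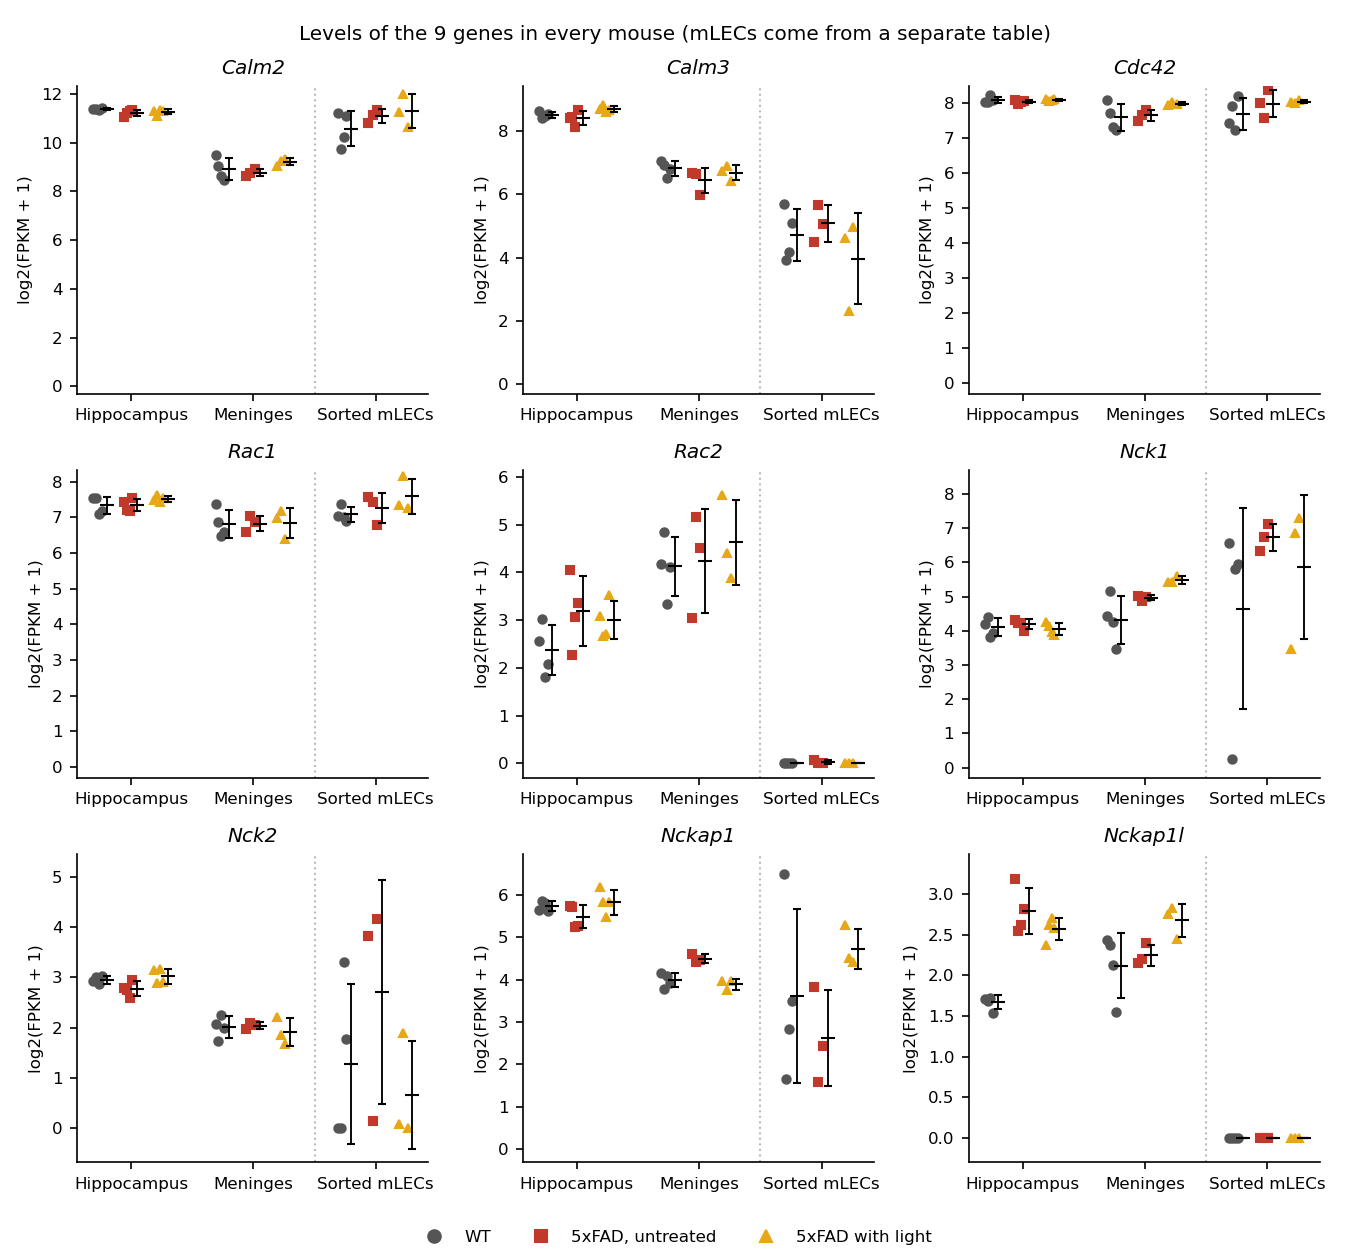
Level of each of the 9 genes as log2(FPKM + 1), 1 point per mouse, with the mean and SD of each group beside the points (WT grey circles, untreated 5xFAD red squares, 5xFAD with light yellow triangles; n = 3 or 4). Each panel has its own vertical axis; the mLECs, right of the dotted line, come from a table of their own, and Nckap1l was at 0 in all 10 of them.

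In the HPC the leukocyte members Nckap1l and Rac2 rose in 5xFAD mice, and the other 7 did not pass the test. Nckap1l, the WAVE complex subunit of blood cells (chromosome 15, 103453794 to 103498810, plus strand), had FPKM values of 2.28, 2.22, 2.31 and 1.91 in WT mice, 8.14, 4.85, 5.17 and 6.04 in untreated 5xFAD mice, and 4.20, 5.17, 5.51 and 5.00 in light-treated 5xFAD mice. Every 5xFAD mouse, with or without light, lay above every WT mouse, and the 2 groups of 5xFAD mice overlapped. The group means were 2.18 ± 0.18 (SD, n = 4), 6.05 ± 1.48 (SD, n = 4) and 4.97 ± 0.56 (SD, n = 4). The rise was 2.81-fold in untreated 5xFAD against WT mice (log2 fold change 1.49, standard error 0.17, adjusted p = 0.000109, edgeR quasi-likelihood test with Benjamini-Hochberg adjustment) and 2.30-fold with light against WT (1.20, standard error 0.17, adjusted p = 0.000854). Both comparisons use the same WT mice.

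Rac2, the Rac of blood cells that also serves the NADPH oxidase (chromosome 15, 78559167 to 78572783, minus strand), had a CPM, the count scaled to the library total, of 4.11, 4.63, 4.28 and 3.84 in WT mice, 23.4, 11.9, 10.9 and 15.99 in untreated 5xFAD mice, and 15.0, 9.64, 17.0 and 17.3 with light. No WT mouse reached the lowest 5xFAD mouse. On counts the rise was 3.73-fold (log2 fold change 1.90, standard error 0.26, adjusted p = 0.000432, edgeR) untreated and 3.52-fold (1.82, standard error 0.26, adjusted p = 0.00103) with light, again against the same WT mice. In FPKM the same libraries overlapped: WT mice had 4.94, 7.12, 2.53 and 3.24, untreated 5xFAD mice 15.5, 3.84, 7.41 and 9.33, and light-treated mice 7.52, 5.38, 5.50 and 10.6. FPKM divides the count by a length, and the length implied by count and FPKM ran from 650 to 3099 bases for Rac2 across the 12 HPC libraries. GENCODE lists Rac2 transcripts of 3038, 459 and 254 bases. With limma on log2(FPKM + 1) the Rac2 difference was 0.82 untreated (adjusted p = 0.165) and 0.63 with light (adjusted p = 0.415), so its call rests on the count scale.

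Of the 9 members, 2 were called, both higher, in untreated 5xFAD against WT HPC, where 8.54% of all tested genes were called in either direction and 6.48% were called higher. In light-treated 5xFAD against WT HPC 2 were also called higher, with 3.59% of all tested genes called and 3.05% called higher. In FPKM, 1 member lay wholly above and 1 wholly below WT in untreated 5xFAD mice, where 14.5% of all tested genes were so separated, 8.75% above and 5.79% below. With light it was again 1 above and 1 below WT, against 14.9% of all tested genes, 7.33% above and 7.52% below. The member below was Calm2, with 2629, 2685, 2618 and 2755 in WT mice, 2096, 2400, 2510 and 2552 in untreated 5xFAD mice and 2508, 2198, 2569 and 2547 with light. The separation was narrow, and in scaled CPM the light-treated and WT groups overlapped. Its log2 fold change was −0.15 (standard error 0.09, adjusted p = 0.359, edgeR) in untreated 5xFAD against WT mice, and the exact permutation test on log2(FPKM + 1), two-sided, gave p = 0.0286, the smallest that 4 against 4 mice allow. That test gave a p value for 86 of 90 pairs of member and comparison, the other 4 being pairs with every library at 0, and its p values were not adjusted.

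**Figure D2:**
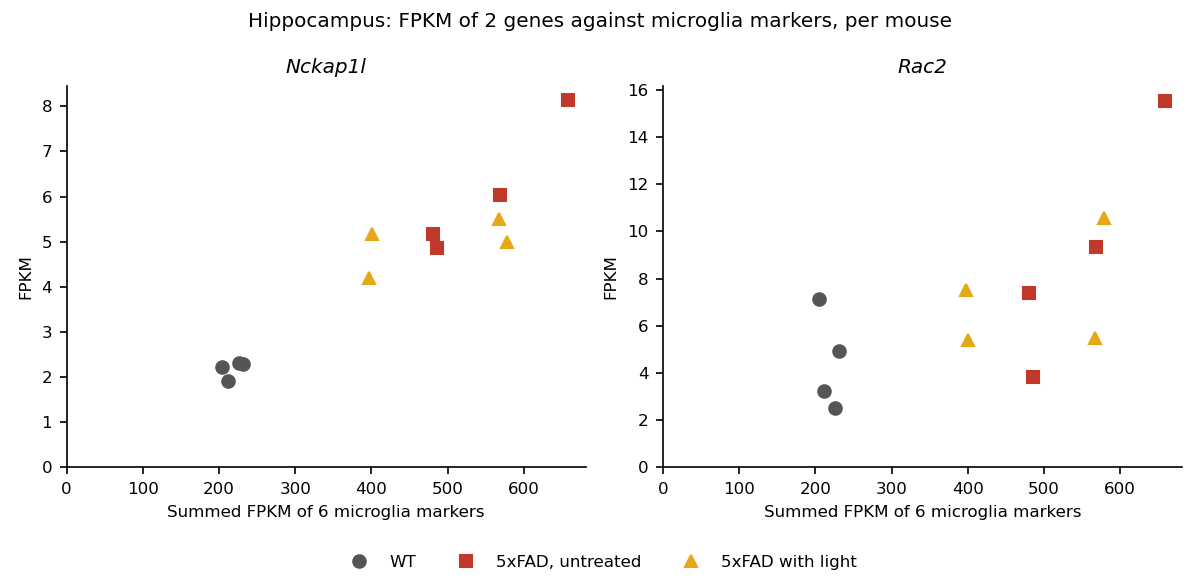
FPKM of Nckap1l (left) and Rac2 (right) in each of the 12 HPC samples, against the summed FPKM of 6 microglia markers in the same sample (WT grey circles, untreated 5xFAD red squares, 5xFAD with light yellow triangles; axes start at 0). WT mice sit at marker sums of 204 to 232 and both groups of 5xFAD mice at 397 to 658; Nckap1l is higher in every 5xFAD mouse, while Rac2 in FPKM overlaps.

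Microglia markers moved with these 2 genes. The FPKM sum of the 6 markers was 204 to 232 in WT mice, 480 to 658 in untreated 5xFAD HPC and 397 to 578 with light, none was at 0 in any group, and 6 of 6 were called higher in untreated 5xFAD and 4 of 6 with light. Per 100 FPKM of these markers, Nckap1l was at 0.904 to 1.09 in WT mice, 0.999 to 1.24 untreated and 0.865 to 1.29 with light, so the groups overlapped on this scale. Rac2 in FPKM, in which its groups overlapped before any division, was at 1.12 to 3.48, 0.791 to 2.36 and 0.970 to 1.89 per 100 FPKM of markers. This ratio was not taken on the count scale, on which the Rac2 call rests, so it does not show whether those counts only followed the markers. In bulk tissue, more cells of a type and more RNA per cell cannot be told apart. Across the 12 HPC samples, which share the contrast between 5xFAD and WT mice, the levels most like Nckap1l among tested genes were those of Renbp (Pearson r = 0.990), C3ar1 (r = 0.988) and Aspg (r = 0.987), and those most like Rac2 were Rhbdf1 (r = 0.899), Itga6 (r = 0.886) and P4ha3 (r = 0.880). Each r was taken on log2(FPKM + 1), so for Rac2 it carries the limits of its FPKM.

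Between light-treated and untreated 5xFAD HPC, 0 of 9 members were called by edgeR, with 2 at an unadjusted p value below 0.05, and 0 by DESeq2, while 0.455% of all tested genes were called by edgeR. At the unadjusted level were 2382 of all 12981 tested genes. No member had separate groups in FPKM, against 7.63% of all tested genes. Calm3 had FPKM values of 341, 350, 279 and 401 untreated and 415, 449, 388 and 406 with light, and only the highest untreated mouse reached the range of the light-treated mice. Its log2 fold change was 0.27 (standard error 0.10, adjusted p = 0.185, edgeR; adjusted p = 0.0773 with DESeq2). Nck2 had 5.96, 5.74, 5.05 and 6.77 untreated and 7.90, 6.4, 7.95 and 6.47 with light, and its log2 fold change was 0.30 (standard error 0.12, adjusted p = 0.209). Nckap1, the WAVE subunit of neurons and most other non-blood cells, had 52.1, 51.5, 36.8 and 37.2 untreated and 71.9, 55.8, 43.2 and 55.7 with light, and these overlapped (0.34, standard error 0.16, adjusted p = 0.272), with a difference of 0.21 without light-treated replicate 1. The Nckap1l difference was −0.29 (standard error 0.16, adjusted p = 0.364), and it was −0.0932 without untreated replicate 1.

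Cdc42 was the steadiest member in HPC. Its FPKM stayed between 251 and 295 over all 12 mice, with means of 271 ± 16.8 in WT mice, 261 ± 7.76 untreated and 269 ± 5.62 with light (SD, n = 4 each). Rac1, the Rac of all tissues, lay between 136 and 196, and Nck1 between 13.2 and 20.3, with all groups overlapping. Across HPC samples the levels most like Nckap1 were B4galt6 (r = 0.972), Sorl1 (r = 0.946) and Ppp3ca (r = 0.932, n = 12), the last a catalytic subunit of the calmodulin-dependent phosphatase calcineurin.

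In the meninges, the tissue in which the study asked about these genes under light, Calm2, Cdc42, Nck1 and Nckap1l lay higher and Nckap1 lower in every light-treated than in every untreated 5xFAD mouse by FPKM, and no member passed the test on counts. Calm2 had FPKM values of 395, 428 and 488 untreated, 530, 614 and 637 with light, and 720, 530, 395 and 353 in WT mice. Cdc42 (chromosome 4, 137319696 to 137357720, minus strand) had 178, 200 and 219 untreated, 243, 260 and 248 with light, and 269, 209, 157 and 149 in WT mice. For both genes the WT mice spanned the values of the untreated and the light-treated mice together. Nckap1l had 3.44, 3.61 and 4.26 untreated, 5.78, 6.09 and 4.46 with light, and 4.41, 4.19, 3.37 and 1.93 in WT mice.

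The log2 fold change of light-treated against untreated mice was 0.43 for Calm2 (standard error 0.28, adjusted p = 0.515), 0.34 for Cdc42 (standard error 0.26, adjusted p = 0.596) and 0.52 for Nckap1l (standard error 0.29, adjusted p = 0.457, edgeR). Of the 9 members, 0 were called by DESeq2 and 0 by edgeR, which called 0.014% of all tested genes. At an unadjusted p value below 0.05 (edgeR) there was 1 member, against 1822 of all 14318 tested genes. By FPKM 4 members were separated upward and 1 downward, against 20.8% of all tested genes in either direction, 10.1% upward and 10.7% downward. With 3 mice against 3, the exact permutation test cannot go below p = 0.1, the value each of these 5 reached.

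**Figure D3:**
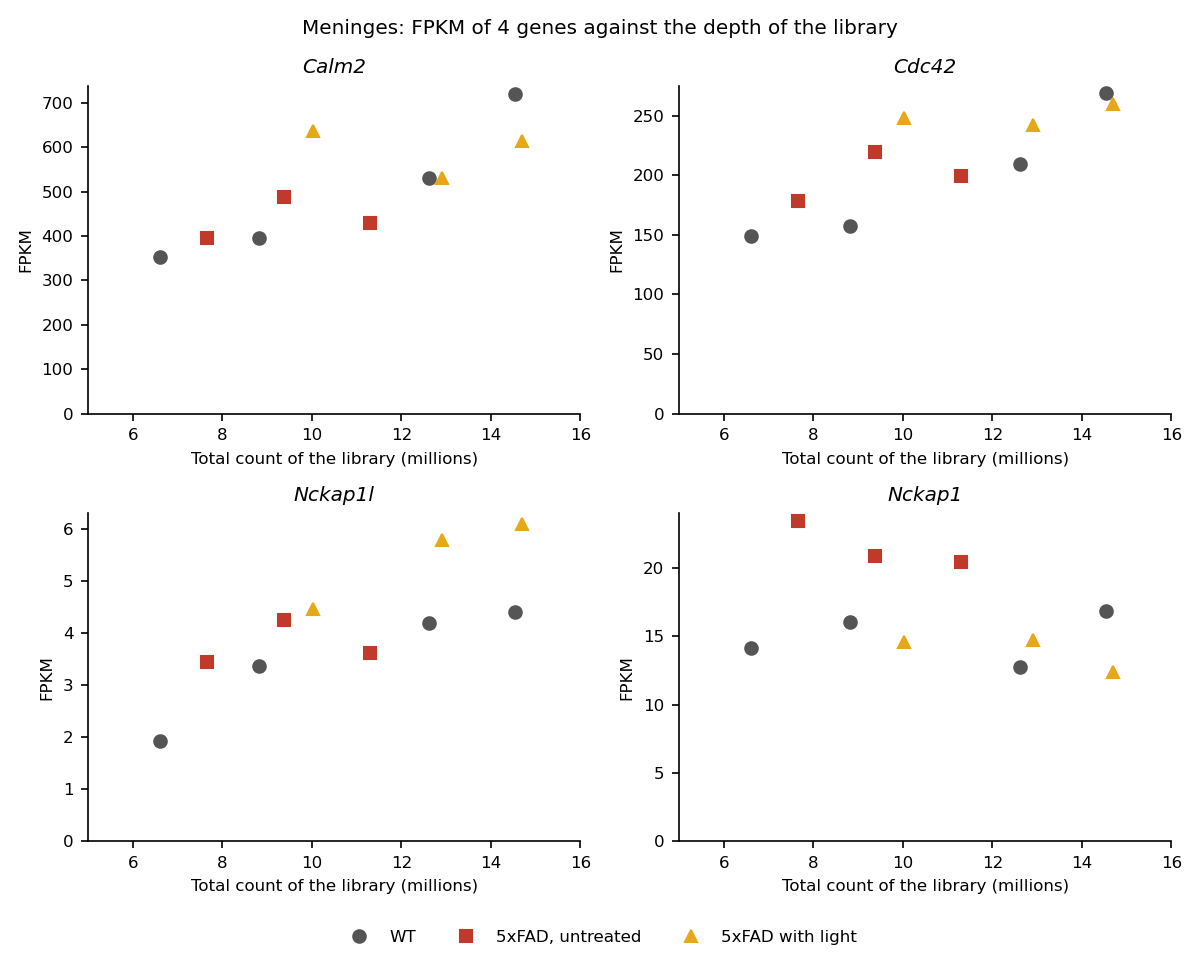
FPKM of Calm2, Cdc42, Nckap1l and Nckap1 in each of the 10 meninges samples, against the total count of the library (WT grey circles, untreated 5xFAD red squares, 5xFAD with light yellow triangles; vertical axes start at 0). Among WT mice, Calm2 runs from 353 in the library of 6601143 counts to 720 in that of 14541203, while among light-treated mice it is highest, at 637, in the library of 10018203; Nckap1 shows untreated 5xFAD mice above the other 7 mice at all depths.

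The order of Calm2, Cdc42 and Nckap1l followed the depth of the meninges libraries in WT mice and in part in 5xFAD mice. Among the 4 WT mice, which received no near-infrared light, Calm2 was at 720 in the library of 14541203 counts, 530 at 12613091, 395 at 8828798 and 353 at 6601143. Cdc42 and Nckap1l followed the same order. The WT library of 14541203 counts also differed in markers. Its choroid plexus markers summed to 15733 against 38775 to 41861 in the other WT libraries, and its neuron markers to 495 against 166 to 268. Whether depth or composition set the order was not tested. Untreated 5xFAD libraries held 7657892, 11302983 and 9383031 counts and light-treated ones 12915229, 14708202 and 10018203. Among the untreated mice all 3 genes were lowest in the shallowest library and highest in the middle one, not in the deepest. Among the light-treated mice Nckap1l followed the order of depth, while Calm2 was highest, at 637, in the shallowest library and Cdc42 was lowest, at 243, in the middle one. In a fit with the log2 total count as a covariate, chosen after seeing the data, the light difference was 0.22 for Calm2 (standard error 0.27), 0.12 for Cdc42 (standard error 0.25) and 0.19 for Nckap1l (standard error 0.25), each smaller than without it. Over the 10 meninges samples, which differ in depth, the levels most like Cdc42 were Commd10 (r = 0.974), Sdcbp (r = 0.974) and Tiprl (r = 0.973), and those most like Calm2 were Cyria (r = 0.964), G6pdx (r = 0.964) and Wls (r = 0.952).

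Markers of blood cells were also measured beside Nckap1l, which leukocytes express. The 10 leukocyte markers summed to an FPKM of 310 to 602 in WT mice, 337 to 614 untreated and 405 to 887 with light, and 7 B cell markers to 32.4 to 46.6, 34.4 to 43.0 and 50.9 to 85.2. No marker of either list was at 0 in a whole group, and 0 of 10 leukocyte and 0 of 6 tested B cell markers were called with light. Their part in the Nckap1l values was not tested. Rac2 had 7.20, 34.5 and 21.8 untreated, 47.8, 20.2 and 13.7 with light, and 17.2, 27.9, 9.18 and 16.3 in WT meninges, with all groups overlapping. Its log2 fold change was 0.51 (standard error 0.41, adjusted p = 0.609), and it was −0.09 without light-treated replicate 1, whose neutrophil markers summed to 7593 against 537 to 3128 in the other 9 libraries. The levels most like Rac2 across the meninges samples were Alox5ap (r = 0.966), Spi1 (r = 0.944) and Lyz2 (r = 0.922), and those most like Nckap1l were Slc35f5 (r = 0.951), Capza2 (r = 0.951) and Pygl (r = 0.948, n = 10).

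Nck1, the adaptor gene on chromosome 9 from 100492293 to 100546134 (minus strand), had separate groups in FPKM and overlapping groups in counts. In FPKM untreated 5xFAD meninges had 31.5, 28.4 and 30.9, light-treated 41.5, 42.1 and 47.6, and WT 20.6, 34.9, 18.1 and 9.98. In CPM untreated mice had 63.7, 50.3 and 64.4, light-treated mice 61.6, 63.3 and 84.0, and WT mice 35.9, 54.0, 42.0 and 26.5. On the first scale light-treated mice were above all untreated mice, and on the other light-treated replicate 4, at 84.0, was above them and the other two were among them. The difference between light-treated and untreated mice was 0.52 as log2(FPKM + 1) and 0.27 as a log2 fold change of counts (standard error 0.28, adjusted p = 0.690, edgeR). The latter was 0.0614 without light-treated replicate 4 and 0.17 without untreated replicate 2.

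The length implied by count and FPKM for Nck1 was 2025, 1772 and 2083 bases in untreated mice, 1483, 1504 and 1766 bases with light, and 1744, 1547, 2323 and 2656 bases in WT mice. Light-treated libraries thus lay below all untreated ones in implied length. This was not particular to Nck1. Calm2 (1224 to 1237 against 1254 to 1279 bases), Calm3, Nck2, Nckap1, Nckap1l and Rac1 were separated in the same direction. For Cdc42 and Rac2 the ranges overlapped. The share of all genes separated in this way was not measured. For Calm2 the same quantity stayed between 1224 and 1279 bases in these 10 libraries, and for Nck1 in the 12 HPC libraries between 1458 and 1718 bases. GENCODE lists 4 protein-coding Nck1 transcripts: 1 of 4476 bases that starts at 100546134, 1 of 734 bases from 100546122, 1 of 600 bases from 100545731, and 1 of 1513 bases that starts further inside the gene at 100506856. The deposited values are per gene, so the share of each transcript was not measured here. The 250 bases before the first and the last of these starts, from RefSeq on GRCm38.p6, are shown to set the starts apart, written 5′ to 3′ on the minus strand with CG in capitals.
Nck1 upstream start, chr9:100546135-100546384: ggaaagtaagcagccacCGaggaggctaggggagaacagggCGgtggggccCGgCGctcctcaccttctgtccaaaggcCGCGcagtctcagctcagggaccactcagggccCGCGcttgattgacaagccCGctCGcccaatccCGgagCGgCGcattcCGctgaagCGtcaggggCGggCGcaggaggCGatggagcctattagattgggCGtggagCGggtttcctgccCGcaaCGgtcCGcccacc
Nck1 internal start, chr9:100506857-100507106: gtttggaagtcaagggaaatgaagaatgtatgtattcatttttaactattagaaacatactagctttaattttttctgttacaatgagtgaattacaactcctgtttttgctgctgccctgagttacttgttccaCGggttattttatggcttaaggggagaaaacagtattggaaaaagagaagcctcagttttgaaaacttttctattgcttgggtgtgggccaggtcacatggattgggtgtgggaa
The window at the upstream start held 23 CG and the internal one 1, against a median of 6 over 32851 mouse promoters of this length. At least 23 CG were present in 13.3% of those promoters and at most 1 in 18.8%. CG reads the same on both strands, and its count describes the windows only. RefSeq windows were matched for 4 of the 9 members.

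**Figure D4:**
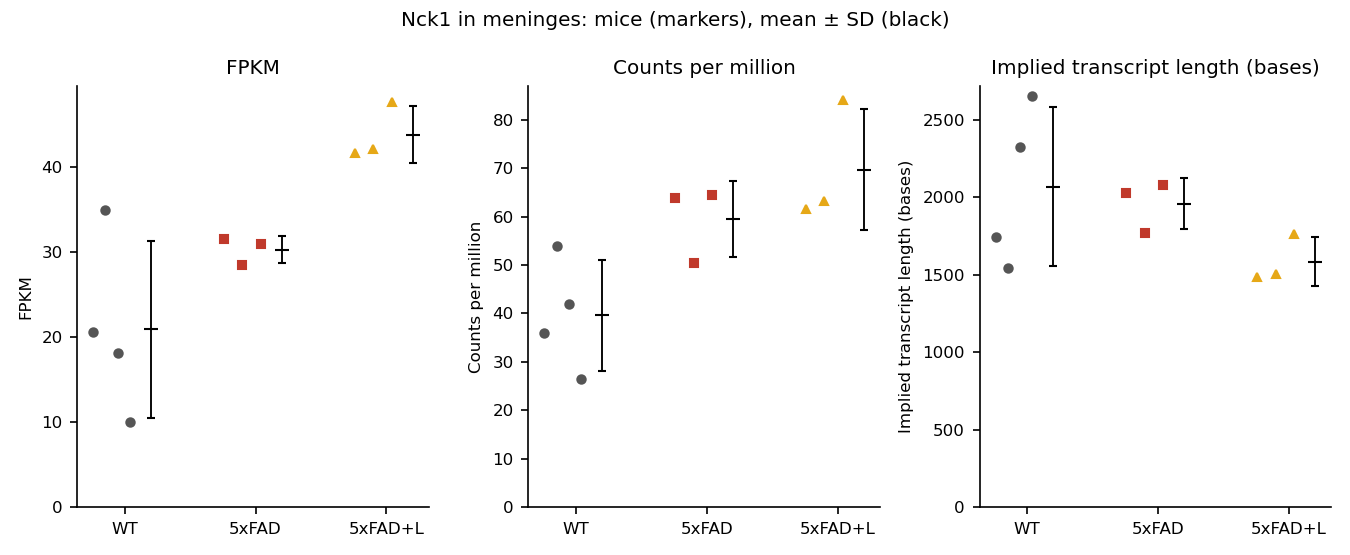
Nck1 in the 10 meninges samples on each scale: FPKM, CPM, and the length in bases implied by the ratio of count to FPKM, 1 point per mouse with groups along the horizontal axis. Light-treated mice are above untreated mice in FPKM (41.5 to 47.6 against 28.4 to 31.5), overlap them in CPM (61.6 to 84.0 against 50.3 to 64.4) and lie below them in implied length (1483 to 1766 against 1772 to 2083 bases).

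Nckap1 was the member with the lowest unadjusted p value between light-treated and untreated meninges, and it went the opposite way from Nckap1l. Located on chromosome 2 from 80500512 to 80581380 (minus strand), it had FPKM values of 23.4, 20.5 and 20.9 in untreated 5xFAD, 14.7, 12.4 and 14.6 with light and 16.9, 12.8, 16.1 and 14.2 in WT meninges. The 3 untreated 5xFAD mice lay above all 7 others, and the light-treated mice lay among or just below the WT mice. The log2 fold change was −0.62 with light against untreated (standard error 0.21, unadjusted p = 0.0099, adjusted p = 0.300, edgeR), 0.54 untreated against WT (standard error 0.19, adjusted p = 0.987) and −0.08 with light against WT (standard error 0.19, adjusted p = 0.865). The last value was 0.05 without light-treated replicate 2. With the log2 total count as a covariate the light difference was −0.59 (standard error 0.22). The levels most like Nckap1 across the 10 meninges samples were Spred1 (r = 0.919), Lgr4 (r = 0.915) and Plod2 (r = 0.901).

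In untreated 5xFAD against WT meninges 0 of 9 members were called by edgeR, with 2 at an unadjusted p value below 0.05 (Nckap1 and Nck1), and 0 by DESeq2, where 0.0% of all tested genes were called. At the unadjusted level were 574 of all 14318 tested genes. Only Nckap1 was separated in FPKM, 1 of 9, upward, against 4.85% of all tested genes in either direction and 2.19% upward. In light-treated 5xFAD against WT meninges 0 of 9 were called by DESeq2 and 0 by edgeR, which called 0.014% of all tested genes. At an unadjusted p value below 0.05 (edgeR) there were 2 members, against 2355 of all 14318 tested genes. The 2 members were Nck1, whose log2 fold change was 0.85 (standard error 0.26, adjusted p = 0.160), and Nckap1l, at 0.65 (standard error 0.27, adjusted p = 0.262). Both were separated upward in FPKM, against 12.3% of all tested genes in either direction and 6.99% upward. These 3 comparisons share groups pairwise. Calm3, Rac1 and Nck2 overlapped in all 3 of them, at 62.7 to 131, 82.4 to 164 and 2.19 to 3.74 FPKM over the 10 mice.

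**Figure D5:**
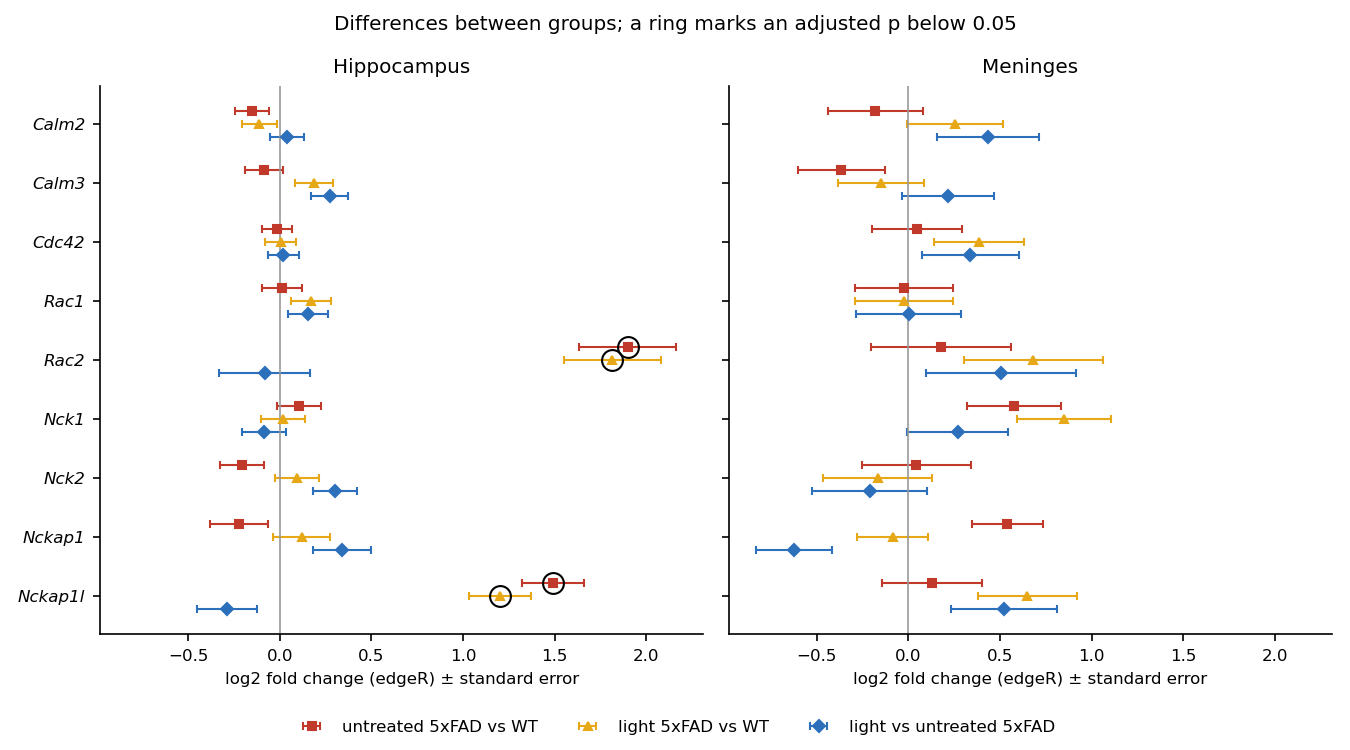
Log2 fold change of each member with its standard error (edgeR) in HPC (left) and meninges (right), for untreated 5xFAD against WT (red squares), light-treated 5xFAD against WT (yellow triangles) and light-treated against untreated 5xFAD (blue diamonds). A ring marks an adjusted p value below 0.05, which Nckap1l (1.49 and 1.20) and Rac2 (1.90 and 1.82) reached in the HPC of untreated and light-treated 5xFAD mice against WT, and no member reached in the meninges.

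The light difference of Nckap1 was then compared between tissues, as the interaction of light and tissue over the 4 groups of 5xFAD samples and the WT samples of both tissues. It was 0.34 in HPC and −0.62 in the meninges, and the difference between them was −0.99 (standard error 0.24, unadjusted p = 0.000577, adjusted p = 0.0518, edgeR). It thus missed the threshold in this fit, and it passed with DESeq2 (adjusted p = 0.00565), with median-of-ratios scaling (adjusted p = 0.0480) and without light-treated HPC replicate 3 (adjusted p = 0.0441). Of the 9 members 0 were called by edgeR, against 1.05% of all tested genes. At an unadjusted p value below 0.05 (edgeR) there were 3 members, against 2998 of 15132 tested genes. DESeq2 called 1 member, against 735 of 15132 tested genes. For Nckap1l the difference between tissues was 0.78 (standard error 0.33, adjusted p = 0.190) and for Nck2 −0.54 (standard error 0.25, adjusted p = 0.240).

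Between the tissues of WT mice, 6 of 9 members were called, against 71.1% of all tested genes, 37.8% higher and 33.2% lower in the meninges. Calm2, Calm3, Nckap1 and Nck2 were lower in the meninges than in HPC, 5.54-fold (log2 fold change −2.47, standard error 0.24), 3.34-fold (−1.74, standard error 0.17), 3.65-fold (−1.87, standard error 0.15) and 2.30-fold (−1.20, standard error 0.18), with adjusted p values (edgeR) of at most 0.000152. Rac2 was 8.02-fold higher in the meninges on counts (log2 fold change 3.00, standard error 0.19, adjusted p = 4.39e-07, edgeR). Its size depended on the scale: the log2 fold change ran from 1.75 to 3.14 over the alternatives. Mean Rac2 FPKM was 4.46 in WT HPC and 17.6 in WT meninges, with implied lengths of 650 to 1691 and 1556 to 3220 bases. Nckap1l was 1.55-fold higher (0.63, standard error 0.25, adjusted p = 0.0411) in this fit, and its value was −0.05 when the tissues were compared over all 22 samples; the call was lost without WT HPC replicate 1, 2 or 4 or WT meninges replicate 1 or 2, with limma on FPKM, with no filter on low values and with the replicate block. Rac1 (−0.50, adjusted p = 0.0577), Nck1 (0.52, adjusted p = 0.0528) and Cdc42 (−0.23, adjusted p = 0.342) did not pass in this fit. Rac1 passed with DESeq2 (adjusted p = 0.0418), with limma on log2(FPKM + 1) (adjusted p = 0.0390), with no filter, over all 22 samples (−0.62, adjusted p = 7.26e-05, edgeR) and without WT meninges replicate 1. Nck1 passed with DESeq2 (adjusted p = 0.0439), with median-of-ratios scaling, over all 22 samples (0.92, adjusted p = 1.18e-07, edgeR) and without WT meninges replicate 1 or 4. Cdc42 passed with limma on log2(FPKM + 1), at −0.50 (adjusted p = 0.0294). By FPKM, 1 member was separated upward and 4 downward, against 66.0% of all tested genes, 35.6% upward and 30.5% downward.

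Within the tissues the order of levels per length was led by Calm2, with a median FPKM of 2550 in HPC, 509 in the meninges and 2215 in the mLECs, the last from a table normalised apart. In HPC it was followed by Calm3 (378), Cdc42 (266) and Rac1 (175), whose ranges of 279 to 449, 251 to 295 and 136 to 196 overlap only between Calm3 and Cdc42. In the meninges Cdc42 (214) came next, above Rac1 (115) and Calm3 (103), whose ranges overlap. Nck2 and Nckap1l were the lowest in the meninges, at medians of 3.06 and 4.22.

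In the sorted mLECs the leukocyte members had no reads in nearly all libraries, and the others varied widely between mice. Nckap1l had 0 counts in 10 of 10 libraries and Rac2 in 9 of 10, with 3 counts in untreated 5xFAD replicate 1. A count of 0 allows up to 3 counts, or 0.124 to 0.211 CPM in these libraries, for counting error only. Of 10 leukocyte markers 7 were at 0 in each group, with Ptprc, which encodes CD45, and 5 more at 0 in 10 of 10 libraries, and the sum of the 10 was an FPKM of 48.7 to 313.5, against 171 to 502 in HPC. Most of that sum was Arhgdib, found in 10 of 10 libraries at 48.7 to 313.4, and Lcp1 was found in 9 of 10. Of 8 neutrophil markers 8 were at 0 in the WT and light-treated groups. The 7 tested members gave 0 calls by edgeR, with 0 at an unadjusted p value below 0.05, and 0 by DESeq2, in each of the 3 comparisons, where 0.0%, 0.0% and 0.0122% of all tested genes were called (light against untreated, untreated against WT, light against WT).

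Cdc42 was the steadiest member in mLECs too, with an FPKM of 169, 240, 147 and 293 in WT mice, 254, 189 and 326 untreated and 259, 253 and 270 with light. Nck1 ran from 0.19 in WT replicate 2 to 156 in light-treated replicate 3. Nckap1 had 13.2, 2.00 and 4.44 untreated, 37.7, 21.7 and 20.2 with light, and 88.4, 2.15, 6.13 and 10.3 in WT mLECs. Light-treated mice were above the untreated ones and within the WT range. The log2 fold change with light was 2.05 (standard error 1.42, adjusted p = 1.00, edgeR), and 1 of 9 members was separated in FPKM, against 10.1% of all tested genes in either direction and 3.55% upward. No member was separated in the other mLEC comparisons (6.23% of all tested genes in untreated 5xFAD against WT, 5.67% with light against WT). The Nckap1 value with light was 2.05 (standard error 1.15) without the 2 WT libraries low in lymphatic markers, a fit chosen after seeing the data, in which 0 members were called. Nckap1 differed by −2.33 between untreated 5xFAD and WT mLECs (standard error 1.39, adjusted p = 1.00), and by 0.02 without WT replicate 1. The Calm3 values ran from 3.96 to 50.5 and the Nck2 values from 0 to 17.0, with all groups overlapping.

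Partners of these proteins were read from 10 lists of 150 genes. In untreated 5xFAD against WT HPC, 26 of the 140 tested list genes were called, 18.6%, with 19 higher and 7 lower, against 8.54% of all tested genes in either direction and 6.48% higher. The median log2 fold change of the 140 was 0.03 against 0.01 over all tested genes. The NADPH oxidase partners of Rac, which make superoxide in phagocytes, rose in 5 of 5 tested genes, among them Cybb, the catalytic subunit (log2 fold change 3.28), Cyba (2.05), Ncf4 (2.00) and Ncf1 (1.58). Among 9 WAVE complex genes Abi3 (1.59) and Wasf2 (0.76) rose, and Abi2 (−0.47) and Cyfip2 (−0.36) fell. Among 19 exchange factors, which load Rac and Cdc42 with GTP, Vav1 (1.84), Dock2 (1.64) and Prex1 (0.69) rose, and Dock9 (−0.59) and Kalrn (−0.50) fell.

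Among 16 GTPase-activating and dissociation-inhibiting proteins, which switch Rac and Cdc42 off, Arhgdib (1.57) and Arhgap17 (0.67) rose and Chn1 (−0.44) fell. The Arp2/3 list had 1 of 9 called, Arpc1b (1.85), and the WASP list 1 of 9, Was (1.73), the WASP of blood cells. Rhoj (1.71) and Rhoc (0.99) rose among 12 other small GTPases, Limk1 (0.77) rose and Cdc42se2 (−0.55) fell among 24 PAK pathway genes and Cdc42 effectors, and Lcp2 (1.46), a partner of Nck in leukocytes, rose among 19 genes upstream of Nck. Among 18 calmodulin targets and buffers Camk1 (0.65) rose and Ppp3r1 (−0.52), the regulatory subunit of calcineurin, fell. Several of the genes that rose are known from microglia and other leukocytes, whose markers were higher in the same samples: 8 of 9 tested leukocyte markers and 5 of 5 macrophage markers were called higher.

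In light-treated 5xFAD against WT HPC 11 of 140 list genes were called, 7.86%, against 3.59% of all tested genes. All 11 were higher, a direction called in 3.05% of all tested genes, and they included the NADPH oxidase genes Cybb (2.61), Cyba (1.64) and Ncf1 (1.27). Also higher were Dock2 (1.68), Vav1 (1.5), Arpc1b (1.37), Abi3 (1.27), Lcp2 (1.06), Arhgdib (0.97) and Pak4 (0.55). Between light-treated and untreated HPC 1 of 140 was called, against 0.455% of all tested genes. It was Kalrn, a neuronal exchange factor for Rac, which was higher with light (log2 fold change 0.68, standard error 0.10, adjusted p = 0.0365, edgeR) and lower in untreated 5xFAD than in WT mice; without the WT mice in the fit, 0 list genes were called. In the meninges 0 of 149 list genes were called by edgeR with light against untreated, with 26 at an unadjusted p value below 0.05, and 0 in untreated 5xFAD against WT, with 1, and 0 with light against WT, with 23. Of all 14318 tested genes, 1822, 574 and 2355 were at that unadjusted level in these comparisons, in the same order. The median log2 fold change of the 149 genes with light against untreated was −0.13, against 0.04 over all tested genes and 0.27 over the 9 members. The 9 members include genes that the study picked for a rise in these libraries, so their median is no independent contrast with the others. Bcr (−1.25) and Ephb2 (−1.85) differed between tissues in their response to light, 2 of 149, against 1.05% of all tested genes, both lower in the meninges. In mLECs 0 of 99 tested list genes were called, with 4 or 5 at an unadjusted p value below 0.05 in each comparison. Of all 8188 tested genes, 328 (light against untreated), 312 (untreated against WT) and 550 (light against WT) were at that level.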

How the data were processed

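RNA from 32 samples was made into Smart-seq2 libraries, primed with oligo-dT, and sequenced on the Illumina NovaSeq. The authors deposited, for each gene and sample, an expected count with no normalization and an FPKM value, which relates it to the length of the transcripts and the depth of the library. Their text names fastp 0.18.0, RSEM and DESeq2 1.40.2, while the submitters' processing notes name Trimmomatic, HISAT2, StringTie, DESeq2 and the build mm10; which steps made the tables was not settled. HPC and meninges share a table, and mLECs have their own, so levels were tested only within a table. Symbols were taken from the mLEC table by gene identifier, since 4 of the 9 members are spelled differently in the other table.

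Rounded counts were tested with edgeR 4.0.16 (R 4.3.3; TMM scaling, quasi-likelihood test). Each tissue had 1 fit over its 3 groups, restricted to genes that reached an FPKM of 1 in 3 or more samples, which left 12981 (HPC), 14318 (meninges) and 8188 (mLECs). Benjamini-Hochberg adjustment ran over all tested genes, with a threshold of 0.05. The WT tissues were compared in a fit of the WT samples, and the light response between tissues in a fit of all 22 HPC and meninges samples. Both fits treated the samples of the tissues as independent, though some may come from the same mouse. Single members were compared as log2(FPKM + 1) by two-sided exact permutation. Implied length was the count divided by the FPKM and by the library total, for counts of at least 20. Alternatives were median-of-ratios scaling, no filter, the compared groups alone, a replicate block, a 2-fold threshold, DESeq2 1.42.0, limma 3.58.1 on log2 FPKM with a pseudocount of 1 or 0.1, and each replicate left out. Replicates differed by more than counting error in all 42 pairs. The edgeR step was tested on simulated data.

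The members and lists were chosen with earlier results of these data known. Named were all members, up to 4 called genes per list and comparison by size of change (Ncf1 was added after its values were seen), and the 3 genes with the highest r to a member, provisional Gm and Rik symbols left out. Some list genes are counted but not reported by name here.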

Additional observations from a re-analysis of the deposited data

Results flagged for a closer look

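Of 43 groups of 4 samples of a member, 2 held a sample far from the others, by a gap to the nearest value that takes up most of the group's range, a mark that chance passes in about 1 group in 20. Calm2 in light-treated 5xFAD HPC was at an FPKM of 2198 in replicate 2 against 2508 to 2569 in the other 3 mice, a gap of 0.835 of the range. Nckap1 in WT mLECs was at 88.4 in replicate 1 against 2.15 to 10.3 in the other 3 libraries, a gap of 0.905 of the range.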

How the results depend on the processing

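The 35 fold changes of members were recomputed in 530 alternatives: 496 kept their direction and their side of the threshold, 13 lost and 17 gained a call, and 4 changed sign. Rac2 in meninges with light against untreated was at −0.09 without light-treated replicate 1, in a range of −0.0901 to 0.798 with 1 replicate left out, Nckap1 in meninges with light against WT ranged from −0.181 to 0.0465 (the latter without light-treated replicate 2), and Nckap1 in untreated 5xFAD against WT mLECs from −3.30 to 0.0184 (the latter without WT replicate 1). Nckap1l between the tissues was at −0.05 over all 22 samples. With limma on FPKM, at either pseudocount, 1 rather than 2 members was called in HPC of untreated and of light-treated 5xFAD against WT mice, Nckap1l. The difference between tissues in the light response had 1 member called, Nckap1, with DESeq2 and with median-of-ratios scaling, and 0 to 1 with a replicate left out, the call appearing without light-treated HPC replicate 3 (adjusted p = 0.0441). The WT tissue comparison called 5 to 7 members with a replicate left out, 8 with DESeq2, 6 with no filter or the replicate block, and 7 under each of the other alternatives, against 6. The other counts of members stayed at 2 in HPC against WT and 0 elsewhere with any replicate left out. Partner genes called with light against untreated HPC numbered 18 with DESeq2 and 2 with the replicate block. They numbered 0 with the compared groups alone or a 2-fold threshold, and 0 to 7 with a replicate left out (7 without untreated replicate 2). With light against WT HPC they numbered 17 with DESeq2 and 19 with the compared groups alone, and in untreated 5xFAD against WT HPC 13 at a 2-fold threshold. Calls over all tested genes also rose in such settings. With light against untreated HPC they were 641 of 12981 with DESeq2 and 269 of 12933 without untreated replicate 2, against 59 in the main fit. With light against WT HPC they were 873 of 12981 with DESeq2 and 1075 of 12618 with the compared groups alone, against 466. Within a tissue, same-numbered replicates of different groups did not deviate together (mean r −0.049 in HPC, −0.048 in meninges and −0.007 in mLECs), so the numbers were not used as pairs there. Whether HPC and meninges samples of the same number came from the same mouse was not tested. With the replicate block in edgeR, Nckap1l between the WT tissues was at 0.57 (adjusted p = 0.0595) and Rac1 at −0.54 (adjusted p = 0.0294). In mLECs, a count of 0 allows levels of up to 0.124 to 0.211 CPM.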
